A study of Mus musculus with 3 samples.

Results

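The genes described here are 10 genes that macrophages are known to express together when they take up lipid, built around the receptor gene *Trem2*: *Trem2*, *Gpnmb*, *Fabp5*, *Lgals3*, *Mmp12*, *Spp1*, *Lpl*, *Apoe*, *Cd9* and *Syngr1*. They were matched by symbol, and all 10 were found among the 32285 genes of the files. They were chosen by their UMI counts as well as their known role, with the differences between classes and between the lupus libraries already in view, so those values are given as a description. The data were 3 droplet single-cell RNA libraries of cells dissociated from isolated mouse glomeruli, the filtering units of the kidney. The first library came from untreated MRL/lpr mice, a strain that lacks a working Fas receptor and develops lupus nephritis spontaneously. The second came from MRL/lpr mice that had received hUC-MSCs, mesenchymal stem cells taken from human umbilical cord, injected into the tail vein at 800000 cells per mouse and followed to day 21. Mice entered the lupus groups at onset of nephritis, at about 16 weeks of age, and were female. The third came from a blank control group whose label names no strain. Each condition was 1 library, the labels do not say how many animals entered it, and both MRL/lpr libraries carry the same lupus background. No difference between libraries could therefore be tested against a spread between animals, and no p-value is given.

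TREM2 is a surface receptor of macrophages and microglia that binds lipids, lipoproteins and cell debris and signals through the adaptor TYROBP. Macrophages that engulf much lipid, in fat tissue, atherosclerotic plaques, injured nerve and injured kidney, are known to switch on a shared set of genes with *Trem2* for lipid binding, lysosomal degradation and matrix turnover, and they are called lipid-associated macrophages. In the kidney some of these genes are also made by other cells, *Spp1* by tubule epithelium and *Lpl* by mesangial cells being examples.

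A barcode was kept when it held at least 1000 unique molecular identifiers (UMIs, each a counted RNA molecule) and at most 10% of them came from mitochondrial genes. This left 14109 barcodes in the untreated MRL/lpr library, 16586 in the treated library and 11018 in the control, with medians of 3716, 2727 and 5069 UMIs. The untreated and treated libraries shared 61 of these barcodes, the untreated library and the control 35, and the treated library and the control 39. Classes were assigned from marker genes that include none of the 10 genes, and barcodes passing the gates of unrelated classes were set aside as mixed. By this gate, which reads *C1qa*, *C1qb*, *C1qc*, *Csf1r*, *Adgre1*, *Ms4a7* and *Fcgr1*, 760 barcodes were macrophage-like in the untreated library (5.39%, 95% exact binomial interval 5.02 to 5.77), 1105 in the treated library (6.66%, 6.29 to 7.05) and 6 in the control (0.0545%, 0.0200 to 0.118). With the gate at 4 times the free level the order of the lupus libraries turned, at 622 barcodes (4.41%, 4.08 to 4.76) and 702 (4.23%, 3.93 to 4.55), within overlapping intervals. Macrophage-like barcodes held a median of 5672.5 UMIs in the untreated library and 3292 in the treated library. No class was assigned to 20.5% of untreated and 30.9% of treated barcodes. Levels are summed UMIs of a class scaled to 1000000 UMIs (CPM), their intervals are exact, cover counting error alone and say nothing of animals, and RNA free in the suspension was read from droplets of 1 to 100 UMIs.

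In the macrophage-like barcodes all 7 gate markers were seen in each library, and their summed level was 16.2 times that of empty droplets in the untreated library and 8.24 times in the treated library, at 13317 against 8276 CPM. Erythroid markers stood at 404 CPM in untreated and 1094 CPM in treated macrophage-like barcodes, which was 0.0488 and 0.186 times the level in empty droplets. Endothelial markers stood at 590 and 746 CPM, 0.236 and 0.240 times that level. Neutrophil markers were also higher in the treated library, at 87.2 and 186.2 CPM. Markers of some other classes were lower there. Patrolling monocyte markers stood at 623.9 CPM in untreated and 248.7 CPM in treated macrophage-like barcodes. They were 3.13 times the level in empty droplets in the untreated library and not above it in the treated one. Proximal tubule markers stood at 125.1 and 35.4 CPM and distal nephron markers at 91.8 and 16.5 CPM. The part of these differences in the results was not tested.

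The start regions of *Trem2*, *Gpnmb* and *Mmp12* are shown because they share a short motif and, among the 10, *Gpnmb* and *Mmp12* had the levels most like those of *Trem2* across classes. RefSeq promoter windows of 300 bases on GRCm38.p6, running from 250 bases before to 50 after an annotated start, were found for 8 of the 10 genes, in 12 windows. *Fabp5* and *Lpl* were not matched. The letters TGANTCA, bound by AP-1 (dimers of Fos and Jun proteins), occurred in 1 window each of the 3 genes, on chr17:48346382-48346408, chr6:49036516-49036542 and chr9:7347320-7347346, plus strand, and are in capitals here with 10 bases on either side.
Trem2: tctccctcctTGAATCAcagcgcctac
Gpnmb: caggggcaagTGACTCAtgagcacgag
Mmp12: acatcaacagTGAGTCAgatagaggat
Counted from the RefSeq starts, the motif began 9 bases before that of *Trem2*, 9 after that of *Gpnmb*, and 44 bases before a downstream start of *Mmp12*. The motif reads the same on both strands apart from its middle base, and it was held by 7.81% of 32851 mouse promoter windows of this length. The 250 bases before the start of *Trem2* lie on chr17:48346151-48346400, plus strand, with the same motif in capitals.
Trem2 upstream: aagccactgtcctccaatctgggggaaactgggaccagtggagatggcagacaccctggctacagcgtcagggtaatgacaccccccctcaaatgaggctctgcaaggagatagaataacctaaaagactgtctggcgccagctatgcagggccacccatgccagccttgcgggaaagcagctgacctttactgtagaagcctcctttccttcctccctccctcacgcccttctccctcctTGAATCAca
The letters CACGTG, bound by MITF and TFE factors of lysosomal genes, were in none of the 12 windows and in 7.15% of all windows. GGAAGT, the core bound by ETS factors, was in windows of *Mmp12* and *Spp1* and in 23.8% of all windows, and its longer form GAGGAAGT, bound by the macrophage factor PU.1 and overlapping it, was in 1 window of each and in 3.20% of all. CATGTG, the core of the M-box, was in windows of *Mmp12* and *Cd9* and in 14.2% of all. Both strands were searched, and a match in letters is a description, not a binding site.

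*Trem2* (ENSMUSG00000023992, chr17:48346401-48354147, plus strand, GRCm38) was concentrated in macrophage-like barcodes of both lupus libraries and stood higher in the treated one. It had 526 UMIs in untreated macrophage-like barcodes (114 CPM, 104 to 124), 3953 in treated ones (805 CPM, 780 to 831) and 0 in the 6 control barcodes, where the upper bound was 95.2 CPM. The log2 ratio of treated over untreated was 2.82 (95% interval 2.69 to 2.96). Macrophage-like barcodes carried 64.0% of the *Trem2* UMIs of all kept barcodes in the untreated library and 60.0% in the treated library, and the control held 8 *Trem2* UMIs in all. In the untreated library the next class in order was inflammatory monocyte-like, at 49.6 CPM, and then patrolling monocyte-like, at 7.86 CPM. In the treated library these stood at 58.1 and 31.8 CPM, below the 97.0 CPM of the empty droplets, and neutrophil-like barcodes stood at 80.5 CPM.

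The adaptor and the signalling chain behind TREM2 did not share this difference. *Tyrobp*, the adaptor gene, was at 3255 CPM in untreated and 3643 CPM in treated macrophage-like barcodes, a log2 ratio of 0.16 (0.13 to 0.19). *Syk*, the kinase recruited by the adaptor, had a log2 ratio of -0.03 (-0.15 to 0.09), and *Inpp5d*, a phosphatase that damps the signal, one of -0.17 (-0.36 to 0.02). Of 8 genes on the TREM2 signalling list none was 2-fold or more higher or lower, with log2 ratios from -0.52 for *Lcp2* to 0.49 for *Vav1* and a median of -0.09. The median of all 9726 genes with at least 50 UMIs was also -0.09, and 3.03% of them were 2-fold or more higher and 4.11% lower. Of 5 other receptor genes of the Trem family, 2 had at least 50 UMIs, and both were 2-fold or more lower. *Treml4* was at 153 CPM in untreated and 38.3 CPM in treated barcodes, and *Trem3* at 40.9 and 15.1 CPM. The summed markers of patrolling monocytes also stood lower in treated macrophage-like barcodes, as given above. Whether the lower *Treml4* and *Trem3* levels go with fewer monocyte-like barcodes in the gate was not tested.

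*Gpnmb* (ENSMUSG00000029816, chr6:49036546-49070929, plus strand) encodes a transmembrane glycoprotein of lysosomes and showed the widest gap of the 10 genes. It had 55 UMIs in untreated macrophage-like barcodes (11.9 CPM, 8.97 to 15.5), 2994 in treated ones (610 CPM, 588 to 632) and 0 in the 6 control barcodes. The log2 ratio was 5.68 (5.29 to 6.09), the second largest of 9725 ranked genes. With the C1q genes left out of the gate the log2 ratio was 4.75, and with the gate at 4 times the free level 6.46. The untreated level was not above the empty droplets of its own library, at 17.0 CPM, or above inflammatory monocyte-like barcodes, at 13.9 CPM. The treated level was 6.78 times that of the empty droplets. *Syngr1* (ENSMUSG00000022415), which encodes a vesicle membrane protein, had 152 UMIs in the untreated (32.9 CPM), 1426 in the treated (290 CPM) and 0 in the control macrophage-like barcodes, with a log2 ratio of 3.14 (2.90 to 3.39), or 2.46 with the C1q genes left out of the gate. For both genes the upper bound in the 6 control barcodes was 95.2 CPM, above the untreated level. The 0 UMIs there do not place the control below the untreated library.

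Of 18 genes on the lysosome list 6 were 2-fold or more higher and none was 2-fold lower, with a median log2 ratio of 0.64, where 3.03% of all genes were 2-fold higher and 4.11% lower. *Atp6v0d2*, a subunit of the proton pump, had 19 UMIs in untreated and 542 in treated barcodes, a log2 ratio of 4.75 (4.09 to 5.49). *Ctsk*, a cathepsin that degrades collagen, had 19 and 221 UMIs. Both passed the filter of 50 UMIs through the treated library alone and so had to differ, which the other 4 did not. *Ctsd*, a lysosomal protease, was at 615 and 2577 CPM, *Ctsl* at 314 and 892 CPM and *Ctss* at 2091 and 4879 CPM. Of the transcription factor genes of the MITF and TFE family, *Tfec* was lower, at 149 and 87 UMIs and a log2 ratio of -0.86 (-1.26 to -0.47), the lowest of the list. *Tfeb* had a log2 ratio of 0.16 (-0.21 to 0.54), *Tfe3* of -0.36 (-0.73 to 0.01) and *Mitf* of 0.30 (0.10 to 0.49).

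Among the lipid genes, the fatty acid carrier differed most and the lipoprotein gene least. *Fabp5* (ENSMUSG00000027533, chr3:10012548-10016607), which encodes a cytosolic fatty acid binding protein, had 4982 UMIs in untreated macrophage-like barcodes (1079 CPM), 39434 in treated ones (8033 CPM) and 0 in control ones, a log2 ratio of 2.90 (2.85 to 2.94). *Lpl*, which encodes lipoprotein lipase, had 1372 UMIs (297 CPM), 2473 (504 CPM) and 6, a log2 ratio of 0.76 (0.67 to 0.86). In empty droplets the log2 ratio of *Lpl* was 0.83 (0.64 to 1.02), which overlapped the macrophage-like interval. *Apoe*, the apolipoprotein that carries cholesterol out of macrophages, had 44362 UMIs (9604 CPM), 38174 (7777 CPM) and 148 (3818 CPM, 3227 to 4485), a log2 ratio of -0.30 (-0.32 to -0.28). *Apoe* was thus the gene of the 10 that stood lower in the treated barcodes, and it was well above empty droplets in both, 9.18 and 5.00 times.

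The wider lipid list was mixed. Of 16 genes for lipid uptake, storage and efflux, 2 were 2-fold or more higher in treated macrophage-like barcodes and none was 2-fold lower, with a median log2 ratio of 0.20, against the same 3.03% and 4.11% of all genes. Those 2 were *Cd36*, a scavenger receptor, with 25.8 against 112 CPM, and *Fabp4*, another fatty acid binding protein, with 515 against 2327 CPM. Both are also genes of capillary endothelium. *Npc1* and *Soat1*, which move and esterify cholesterol, had log2 ratios of 0.98 (0.72 to 1.25) and 0.91 (0.75 to 1.08), and *Plin2*, the coat of lipid droplets, one of 0.56 (0.48 to 0.64). The cholesterol exporters *Abca1* and *Abcg1* had 0.17 (-0.06 to 0.39) and 0.21 (0.04 to 0.37), and *Nr1h3*, the oxysterol receptor that controls them, -0.53 (-0.64 to -0.41).

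*Lgals3*, *Mmp12* and *Spp1*, whose products are secreted, and the surface protein gene *Cd9* were also higher in the treated library, with differing standing against free RNA. *Lgals3*, which encodes the lectin galectin-3, had 6430 UMIs in untreated macrophage-like barcodes (1392 CPM), 17371 in treated ones (3539 CPM) and 25 in control ones, a log2 ratio of 1.35 (1.30 to 1.39). *Mmp12*, macrophage elastase, had 1305 UMIs (283 CPM), 3479 (709 CPM) and 23, a log2 ratio of 1.33 (1.23 to 1.42). It was the gene most confined to the gate in the untreated library, where macrophage-like barcodes carried 81.8% of its UMIs, and in the control, where the 6 macrophage-like barcodes held 23 of 31. *Spp1*, which encodes osteopontin, had 373 UMIs (80.8 CPM), 3074 (626 CPM) and 1, a log2 ratio of 2.96 (2.80 to 3.11). Its untreated level was 0.147 times that of the empty droplets and its treated level 1.30 times. With the expected free RNA subtracted the log2 ratio was 5.31, and as the mean CPM of single barcodes 2.01. *Cd9*, a tetraspanin of the cell surface, had 930 UMIs (201 CPM), 2587 (527 CPM) and 5, a log2 ratio of 1.39, and stood at 0.461 and 0.981 times the empty droplets.

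**Figure D1:**
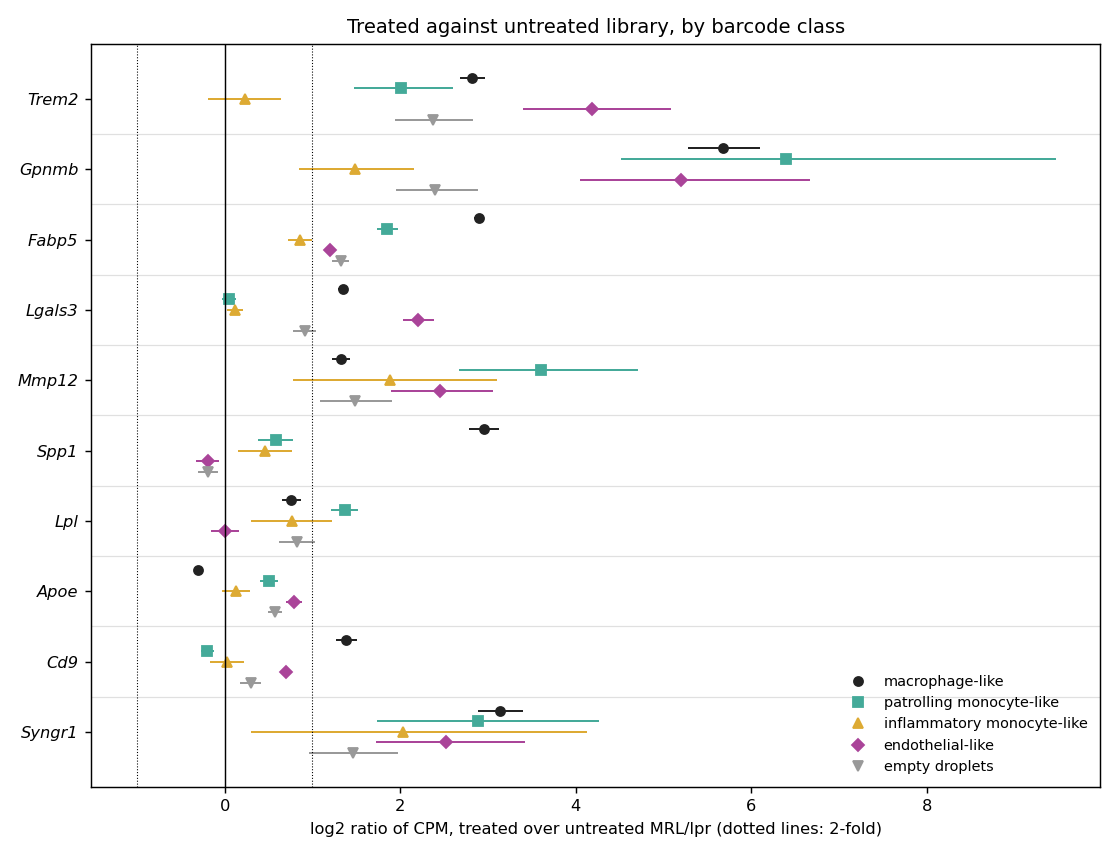
Log2 ratio of CPM, treated over untreated MRL/lpr library, for each of the 10 genes in macrophage-like, patrolling monocyte-like, inflammatory monocyte-like and endothelial-like barcodes and in empty droplets; bars are exact 95% counting intervals and dotted lines mark 2-fold. In macrophage-like barcodes 8 of the 10 points lie beyond 2-fold on the higher side, *Gpnmb* at 5.68, while *Lpl* at 0.76 and *Apoe* at -0.30 lie within it.

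Over the set, 8 of the 10 genes were 2-fold or more higher in treated than in untreated macrophage-like barcodes and none was 2-fold lower. Of all 9726 genes with 50 UMIs or more over both groups, 3.03% were 2-fold or more higher and 4.11% 2-fold or more lower. The genes were chosen with this difference in view, so the count describes them and is no independent evidence. By rank of the log2 ratio, *Gpnmb* was 2, *Syngr1* 10, *Spp1* 12, *Fabp5* 13 and *Trem2* 17 of 9725, with *Cd9*, *Lgals3* and *Mmp12* between 128 and 155, *Lpl* at 521 and *Apoe* at 6911. All 10 genes had at least 50 UMIs in macrophage-like barcodes of each lupus library. Depth differed between the libraries, and its part in the result was not tested. Split at the median depth of each library, *Trem2* was at 103 and 118 CPM in shallower and deeper untreated macrophage-like barcodes and at 429 and 897 CPM in treated ones, and *Gpnmb* at 10.7 and 12.3 against 427 and 655 CPM. *Fabp5* was at 555 and 1264 against 3903 and 9043 CPM. *Lgals3* was at 1127 and 1486 against 1768 and 3971 CPM, so in the shallower barcodes it was less than 2-fold higher.

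**Figure D2:**
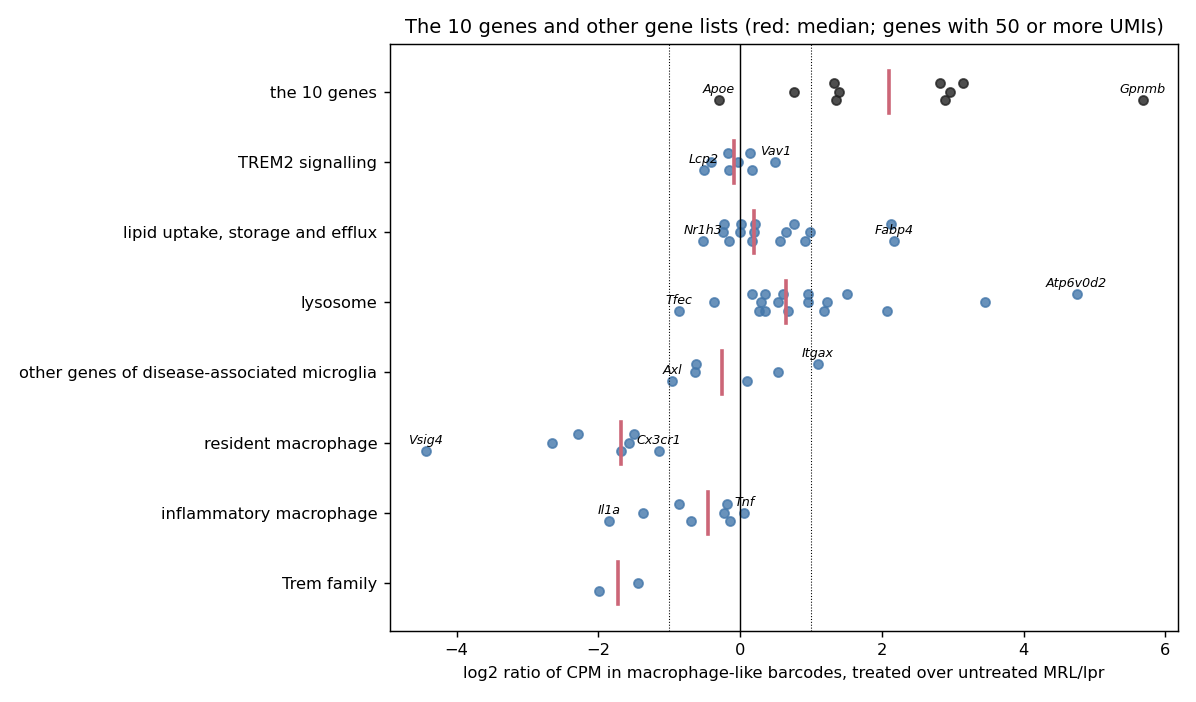
Log2 ratio of CPM in macrophage-like barcodes, treated over untreated MRL/lpr, for the 10 genes and for 7 other lists; each point is a gene with at least 50 UMIs, red bars are list medians and the lowest and highest genes are named. The 10 genes have a median of 2.11, the lysosome list 0.64 and the resident macrophage list -1.68.

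Genes of tissue-resident macrophages stood lower in the treated barcodes. Of 9 resident macrophage genes 7 had at least 50 UMIs, and all 7 were 2-fold or more lower, with a median log2 ratio of -1.68. Of all genes 4.11% were 2-fold lower and 3.03% higher, which is also the background for the next 2 lists. *Vsig4*, a complement receptor, had 306 UMIs in untreated and 15 in treated barcodes, *Cd5l*, a secreted scavenger protein, 2645 and 446, and *Timd4*, a receptor for dying cells, 151 and 33. *Vsig4* and *Timd4* passed the filter through the untreated library alone. *Cd163*, a haemoglobin scavenger receptor, had 27 and 0 UMIs, and *Lyve1* had 0 in both. Of 8 inflammatory genes 2 were 2-fold lower, *Il1b* at 782 and 301 CPM and *Il1a* at 67.5 and 18.7 CPM, and none was 2-fold higher. Of 6 further genes known from disease-associated microglia 1, the integrin gene *Itgax*, was 2-fold higher, with 68.4 and 146 CPM, while the receptor gene *Axl* stood at 194 and 99.4 CPM.

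Within a library, most but not all of the 10 genes were 2-fold or more higher in macrophage-like than in monocyte-like barcodes, and more of them in the treated library. Over inflammatory monocyte-like barcodes, 6 of the 10 were 2-fold or more higher in the untreated library, where 8.73% of genes were, and 10 of 10 in the treated library, where 7.84% were. *Mmp12* and *Syngr1* passed the filter of 50 UMIs in both through the macrophage-like class alone. *Mmp12* was 64.9 times higher in the untreated library (1305 against 10 UMIs) and 44.3 times in the treated one (3479 against 27 UMIs), and *Apoe* 25.7 and 19.1 times. *Trem2* was 2.29 times higher in the untreated and 13.9 times in the treated library. In the untreated library *Gpnmb* and *Spp1*, at 0.855 and 0.956 times, did not differ between the classes beyond counting error. *Lgals3*, at 1.07 times, was slightly higher in macrophage-like barcodes and *Cd9*, at 0.833 times, lower, both beyond counting error. Over patrolling monocyte-like barcodes 7 and 8 of the 10 were 2-fold or more higher, against 10.2% and 7.5% of genes, with *Trem2*, *Gpnmb*, *Mmp12* and *Syngr1* below 50 UMIs in the untreated patrolling class. *Cd9* was the reverse, with 201 CPM in untreated macrophage-like and 1055 CPM in untreated patrolling monocyte-like barcodes and 527 and 920 CPM in treated ones.

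The monocyte-like classes also differed between the lupus libraries. In patrolling monocyte-like barcodes 6 of the 10 were 2-fold or more higher in the treated library, against 1.23% of 9406 genes, with *Trem2* at 35 and 159 UMIs, *Gpnmb* at 2 and 190 and *Fabp5* at 945 and 3840. In inflammatory monocyte-like barcodes 1 of the 8 with enough UMIs was, against 0.805% of 6958 genes. That gene was *Gpnmb*, with 32 and 66 UMIs, while *Trem2* had 114 and 98. *Gpnmb* reached 50 UMIs in the treated library alone, where it was high, so this count is a description. The 2 genes below 50 UMIs there were *Mmp12*, with 10 and 27 UMIs, and *Syngr1*, with 4 and 12, which were 3.68 and 4.09 times higher in CPM. In the patrolling class *Trem2*, *Gpnmb*, *Mmp12* (10 and 137) and *Syngr1* (7 and 58) reached 50 UMIs through the treated library, where they were high, so they had to differ, and the counts of the classes are not comparable. In the treated library *Gpnmb* and *Trem2* stood in both monocyte-like classes below the level of the empty droplets, which were themselves higher than in the untreated library.

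**Figure D3:**
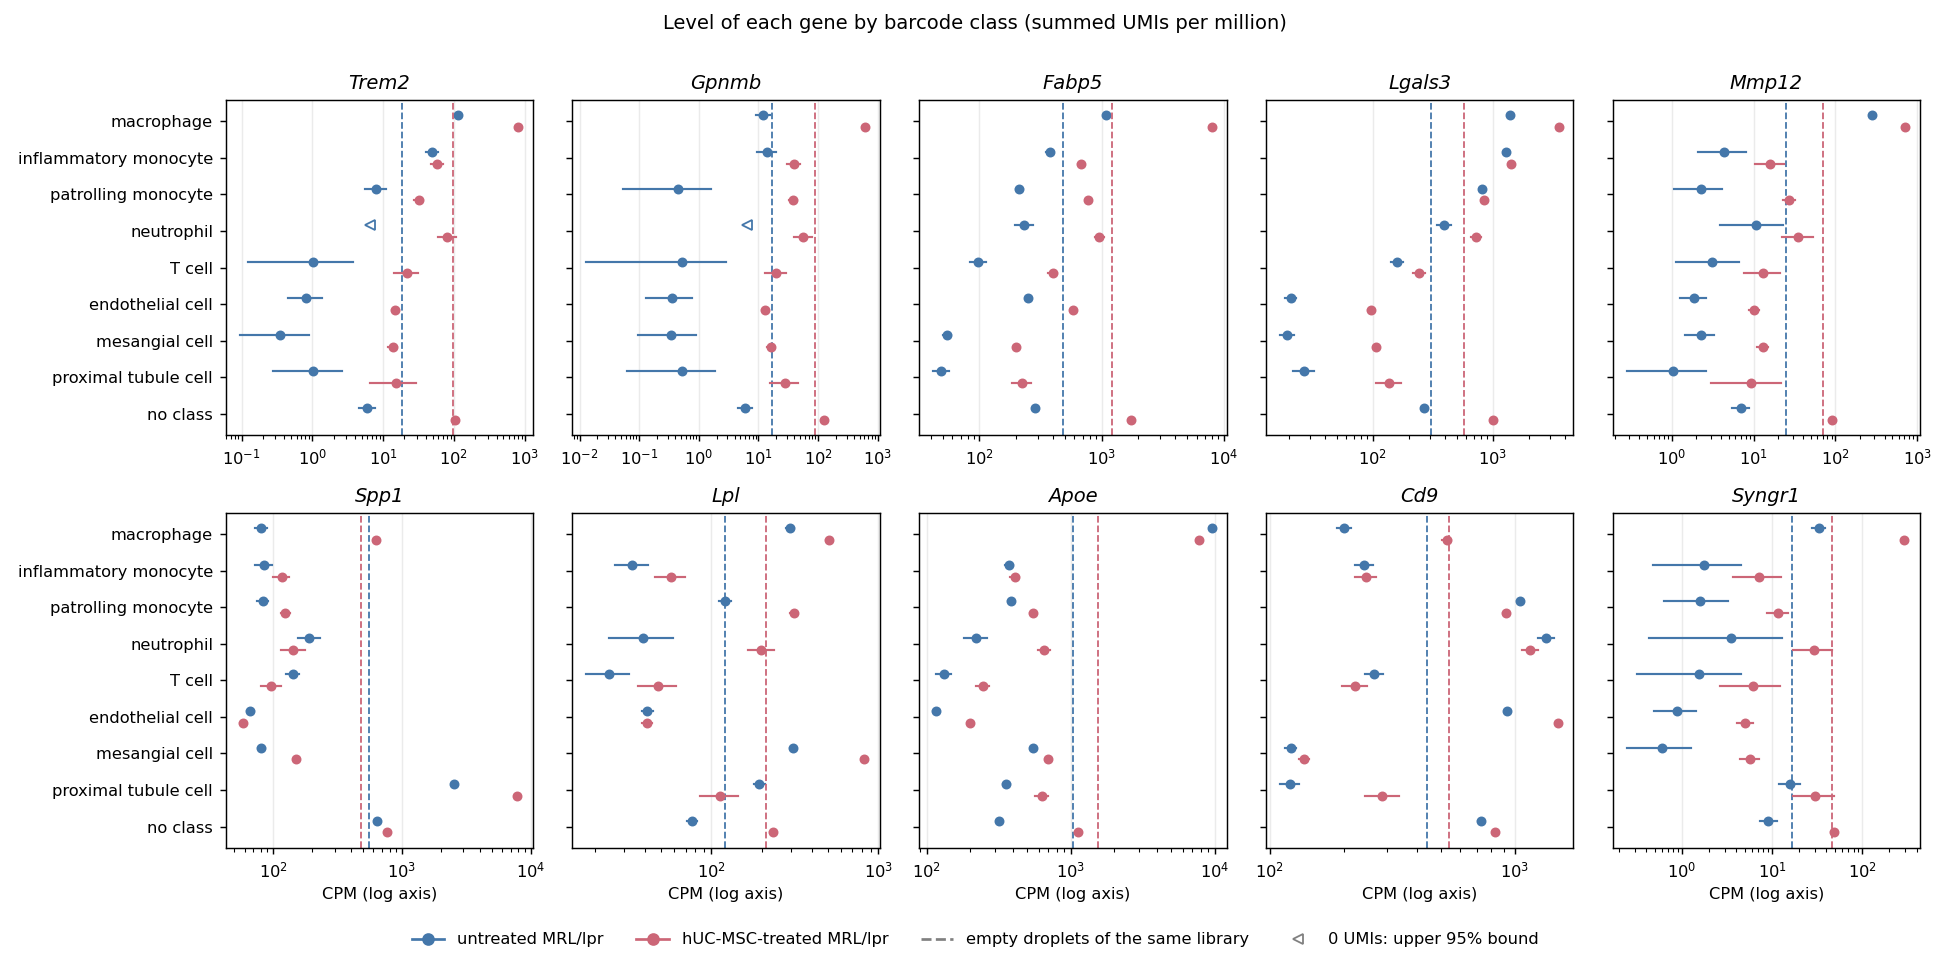
CPM of each of the 10 genes (log axis) in 8 marker-gated classes and in barcodes of no class, in the untreated and treated MRL/lpr libraries, with exact 95% counting intervals; dashed lines are the empty droplets of the same library and open triangles are upper bounds for 0 UMIs. *Trem2*, *Mmp12*, *Fabp5* and *Apoe* are highest in macrophage-like barcodes of both libraries, while *Spp1* is highest in proximal tubule-like barcodes of both and *Cd9* in neutrophil-like barcodes of the untreated and endothelial-like barcodes of the treated library.

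Free RNA carried the same genes, so the classes that should lack them were read against it. From the untreated to the treated library, empty droplets went from 54 to 303 UMIs for *Trem2*, from 49 to 281 for *Gpnmb* and from 72 to 219 for *Mmp12*, at totals of 2881360 and 3123588 UMIs, and 5 of the 10 genes were 2-fold or more higher, against 1.01% of 10393 genes, *Gpnmb* and *Syngr1* with just under 50 UMIs in the untreated library. In endothelial-like barcodes *Trem2* had 14 UMIs in the untreated library (0.816 CPM) and 288 in the treated one (14.8 CPM), which was 0.0436 and 0.153 times the empty droplets. *Gpnmb* had 6 and 250 UMIs there, 0.0206 and 0.143 times. These genes were 18.1 and 36.7 times higher in treated than in untreated endothelial-like barcodes, and 6 of the 10 passed 2-fold there against 5.04% of 12885 genes, and each of these 6 levels was below that of the empty droplets. *Trem2*, *Gpnmb*, *Mmp12* (32 and 199 UMIs) and *Syngr1* (15 and 98) reached the 50 UMIs needed there through the treated library alone and had to differ, so the count is a description. In mesangial-like barcodes 7 of the 10 passed 2-fold against 3.41% of 12281 genes, the same 4 genes again through the treated library alone, with *Trem2* at 4 and 175 UMIs and *Lpl*, above the empty droplets in both libraries, at 3562 and 10648. Relative to the complement genes *C1qa*, *C1qb* and *C1qc*, *Trem2* had 1.24 UMIs per 100 C1q UMIs in untreated endothelial-like barcodes (0.675 to 2.09) and 0.937 in untreated macrophage-like ones (0.859 to 1.02). In the untreated empty droplets it had 2.83 (2.12 to 3.70), above the macrophage-like ratio, and in mesangial-like barcodes 0.466, from 4 *Trem2* UMIs and overlapping it. In the treated library the ratio was 11.7 in macrophage-like barcodes (11.4 to 12.1), 12.5 in empty droplets and 14.1 in mesangial-like barcodes. It was above the macrophage-like interval in endothelial-like barcodes, at 16.6 (14.6 to 18.8), and in T cell-like ones, at 21.1 (13.5 to 31.8). The same held in erythroid-like ones, at 23.6 (14.8 to 36.5), and in neutrophil-like ones, at 27.5 (19.7 to 37.8). Patrolling monocyte-like barcodes, at 23.3, inflammatory monocyte-like ones, at 32.2, and barcodes of no class, at 55.3, were also above it. The C1q genes are markers of the macrophage gate, so the gate raises them in macrophage-like barcodes. The part of the gate in the higher ratios of other classes was not tested, and these ratios are a description.

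Over empty droplets, 6 of the 10 genes were 2-fold or more higher in untreated macrophage-like barcodes and 8 in treated ones, against 9.38% and 5.35% of genes. *Spp1*, *Lpl* and *Cd9* had their highest levels outside the macrophage-like class in both lupus libraries, as did *Gpnmb* in the untreated library, where inflammatory monocyte-like barcodes came first within overlapping intervals. *Spp1* was at 2523 CPM in proximal tubule-like and 2198 CPM in distal nephron-like barcodes of the untreated library and at 7857 and 2127 CPM in the treated one. *Lpl* was highest in mesangial-like barcodes, at 308 CPM in the untreated library, which overlapped the macrophage-like 297 CPM within counting error, and at 827 CPM in the treated library. *Cd9* was highest in neutrophil-like barcodes of the untreated library, at 1343 CPM, and in endothelial-like barcodes of the treated library, at 1504 CPM. The untreated endothelial-like level was 928 CPM, below the distal nephron-like 1131 and the patrolling monocyte-like 1055 CPM. In the control *Lpl* was at 181 CPM in mesangial-like, *Cd9* at 868 CPM in endothelial-like and *Lgals3* at 1597 CPM in distal nephron-like barcodes.

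**Figure D4:**
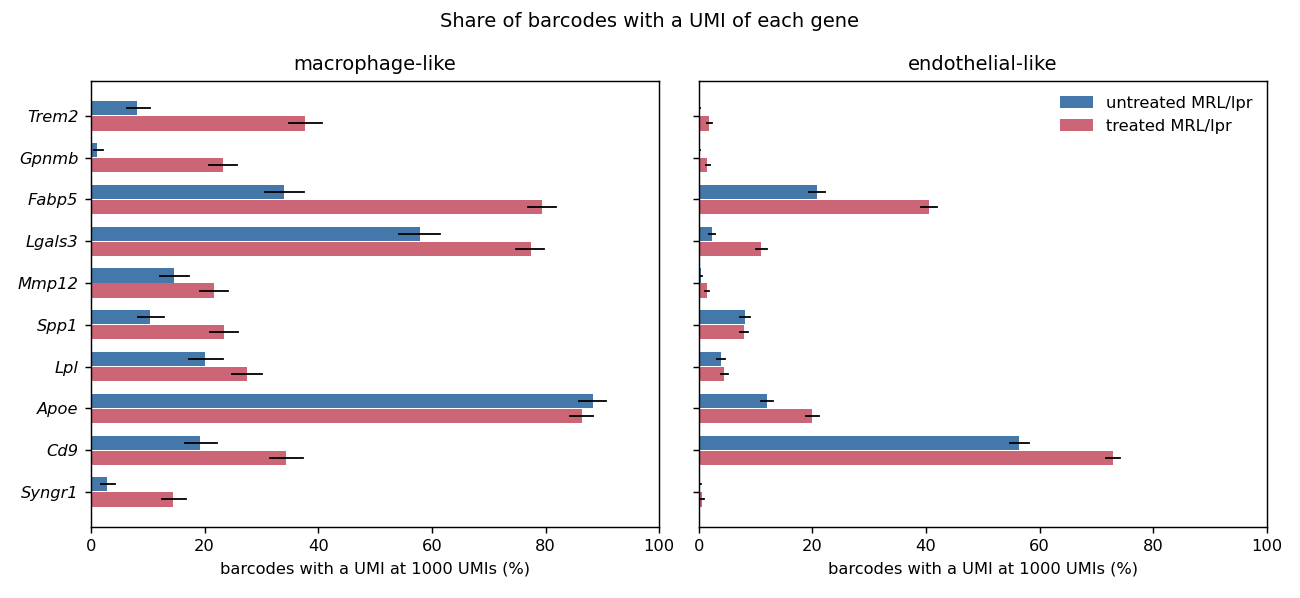
Share of macrophage-like (left) and endothelial-like (right) barcodes with at least 1 UMI of each gene after thinning every barcode to 1000 UMIs, in the untreated and treated MRL/lpr libraries, with exact binomial 95% intervals. *Trem2* is seen in 8.16% and 37.7% of macrophage-like and in 0.0573% and 1.89% of endothelial-like barcodes.

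Single barcodes showed the same differences after each had been thinned to 1000 UMIs. *Trem2* was then seen in 62 of 760 untreated macrophage-like barcodes (8.16%, 6.31 to 10.3) and in 417 of 1105 treated ones (37.7%, 34.9 to 40.7), and in 27.0% and 61.4% without thinning. Endothelial-like barcodes, which should lack the gene, had 0.0573% and 1.89% after thinning and 0.373% and 5.51% before, at median depths of 3812 and 2989 UMIs. Untreated inflammatory monocyte-like barcodes had 6.27% after thinning (3.97 to 9.34), overlapping the untreated macrophage-like interval, and 21.9% before. Untreated patrolling monocyte-like ones had 0.674% after thinning. *Gpnmb* was seen in 8 untreated (1.05%) and 256 treated macrophage-like barcodes (23.2%), *Fabp5* in 33.9% and 79.5%, *Mmp12* in 14.6% and 21.6%, and *Apoe* in 88.4% and 86.4%. *Mmp12* was uneven among barcodes: the 76 untreated ones with most of its UMIs held 81.2% of them and the 110 treated ones 80.4%. Its highest barcode held 7 and 59 after thinning. The top 76 untreated barcodes also held 96.9% for *Spp1*, and 100% for *Trem2*, *Gpnmb* and *Syngr1*, which fewer than 76 barcodes had. The top 110 treated ones held 77.4% for *Syngr1*, 75.0% for *Spp1*, 72.5% for *Gpnmb* and 46.8% for *Trem2*. *Fabp5*, *Lgals3*, *Lpl*, *Apoe* and *Cd9* were lower than *Mmp12* in both, at 31.8% to 65.5% and 36.3% to 58.7%. Unevenness was thus not particular to *Mmp12*.

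More of the 10 genes were seen together in treated macrophage-like barcodes. The median number per thinned barcode was 2 in the untreated and 4 in the treated library, and 5 or more were seen in 57 of 760 (7.5%, 5.73 to 9.61) and 461 of 1105 barcodes (41.7%, 38.8 to 44.7). These intervals do not cover the random draw of the thinning. With the C1q genes left out of the gate the treated share was 27.8%. 8 or more were seen in 1 untreated and 60 treated barcodes. Among endothelial-like barcodes 5 or more were seen in 1 of 3488 and 37 of 4771. Of the 45 pairs of genes, 30 in the untreated and 42 in the treated library were seen together more often than the product of their shares. Any excess was counted, however small, such as 1.01 times for *Lgals3* and *Apoe* in the treated library. No interval and no share over pairs of other genes is given, so whether these counts are particular to the 10 genes was not tested. The median of observed over expected across all 45 pairs was 1.07 and 1.12. In the treated library the pair with most excess was *Gpnmb* and *Syngr1*, seen together in 88 barcodes where 37.1 were expected, while *Trem2* and *Cd9* met in 138 where 143 were expected. *Trem2* and *Gpnmb* met in 129 where 96.6 were expected, and 30.9% of barcodes with *Trem2* had *Gpnmb* against 18.5% of those without.

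**Figure D5:**
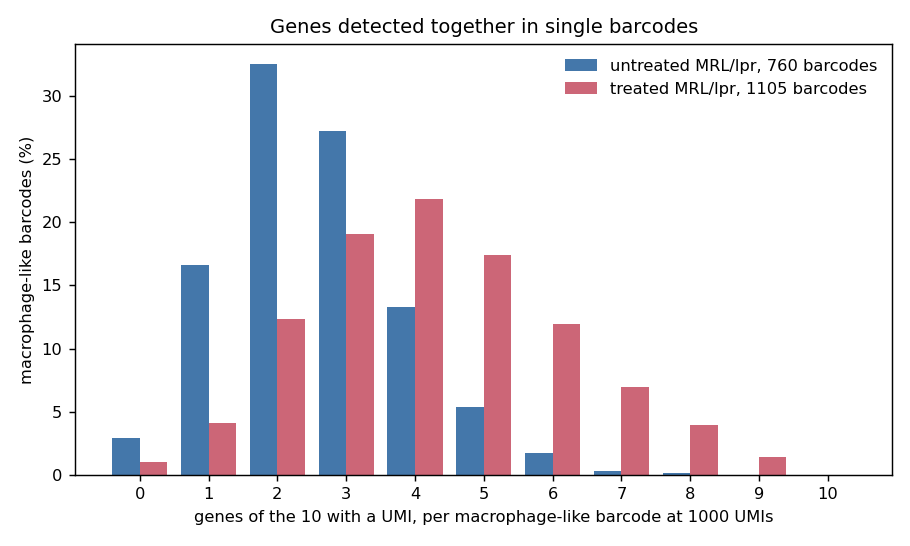
Number of the 10 genes with a UMI per macrophage-like barcode after thinning to 1000 UMIs, as percent of the 760 untreated and 1105 treated barcodes. The treated distribution is shifted to higher numbers, with a median of 4 against 2.

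Barcodes with *Gpnmb* were set against those without it in each lupus library. Among 2109 genes ranked by the lower of their log2 ratios in the 2 libraries, *Gpnmb*-positive over *Gpnmb*-negative, the first 10 were *Igf1*, *Fabp5*, *Pld3*, *Lgals3*, *Timp2*, *Ctsd*, *Rnh1*, *Psap*, *Dnmt3a* and *Asah1*. *Igf1* encodes a growth factor, *Ctsd* a lysosomal protease and *Psap* the precursor of the saposins. The untreated intervals of *Pld3*, *Timp2*, *Dnmt3a* and *Asah1* included equality, on 2 to 5 UMIs in the positive barcodes. In the treated library, with 256 positive and 849 negative barcodes, *Fabp5* had a log2 ratio of 1.40 (1.32 to 1.47), *Spp1* of 1.78 (1.55 to 2.02), *Syngr1* of 2.16 (1.77 to 2.56) and *Trem2* of 0.71 (0.48 to 0.94), while *Apoe* had 0.06 (-0.01 to 0.14). The untreated library had 8 positive barcodes, so its values rest on few UMIs. There *Fabp5* had 45 UMIs, *Lgals3* 37, *Syngr1* 4, *Cd9* 4 and *Trem2* 2, and *Mmp12*, *Spp1* and *Lpl* had 0. The median log2 ratio over all 2284 genes was 0.38 there, against -0.06 in the treated library, so equality is not its midpoint. The untreated interval of *Rnh1*, 0.25 to 3.57 on 4 UMIs in the positive barcodes, included that median. The intervals for *Fabp5*, *Lgals3* and *Syngr1* lay above that median, those for *Trem2* and *Cd9* included it, and *Apoe* was lower, with a log2 ratio of -1.04 (-1.54 to -0.58). Positive and negative barcodes come from the same library, and these ratios are descriptions.

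*Apoe* was higher in barcodes with *Cd5l*, a gene of resident macrophages that was seen after thinning in 217 of 760 untreated and 64 of 1105 treated macrophage-like barcodes. In *Cd5l*-positive over negative barcodes *Apoe* had a log2 ratio of 0.75 (0.68 to 0.82) in the untreated and 0.64 (0.53 to 0.75) in the treated library. *C1qa*, a marker of the macrophage gate, was also higher in *Cd5l*-positive barcodes, at 0.36 (0.25 to 0.46) and 0.75 (0.55 to 0.95). *Gpnmb* had -1.60 (-2.61 to -0.75) and *Syngr1* -1.41 (-3.05 to -0.16) in the treated library, where *Trem2*, at -0.31 (-0.86 to 0.20), did not differ beyond counting error. *Fabp5*, *Lgals3* and *Spp1* were lower in both libraries beyond counting error, at -0.39, -0.33 and -1.02 in the untreated and -0.64, -0.82 and -0.89 in the treated one. In the treated library *Mmp12* was also lower, at -0.58 (-1.20 to -0.01), and *Lpl* higher, at 0.61 (0.10 to 1.08). In the untreated library *Gpnmb* had 0 UMIs in *Cd5l*-positive and 10 in negative barcodes, and its interval included equality.

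Across 32 groups of at least 50 barcodes, each a class in a library, the 5 genes whose log2 level was most like that of *Trem2* among 9621 genes were *Ms4a7* (Pearson r = 0.95), *4930430E12Rik* (0.94), *Hal* (0.92), *Gpnmb* (0.91) and *Mmp12* (0.90). *Fabp5* followed at 0.88, then *Syngr1* at 0.74, *Apoe* at 0.73, *Lgals3* at 0.64, *Lpl* at 0.47, *Spp1* at 0.17 and *Cd9* at 0.11. The groups share 3 libraries and their free RNA, and *Ms4a7* is a marker of the macrophage gate.

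Part of the signal lay outside the gate. In the treated library, barcodes of no class held 22.8% of the *Trem2* and 31.5% of the *Gpnmb* UMIs of all kept barcodes, at 103 and 127 CPM, which was 1.06 and 1.41 times the empty droplets. Barcodes with at least 3 *Gpnmb* UMIs numbered 221 in the macrophage-like class and 119 in no class of the treated library, and 7 and 9 in the untreated library. The 119 treated barcodes of no class had the adaptor gene *Tyrobp* at 2902 CPM, *Cd68* at 768 CPM, *Ms4a7* at 475 CPM, *Trem2* at 560 CPM and *Fabp5* at 11703 CPM, but *C1qa* at 31.2 CPM. The 221 in the gate had 3943, 948, 1175, 1188, 14966 and 2241 CPM. Barcodes with many UMIs of these genes and few of *C1qa* were therefore left out of the macrophage-like class, and over all kept barcodes *Trem2* was at 11.3 CPM in the untreated, 96.3 CPM in the treated and 0.104 CPM in the control library.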

How the data were processed

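The deposited matrices hold UMI counts per gene and barcode, which the authors made with Cell Ranger (version 4 in the file headers, 1.1.0 in the extraction protocol) on mm10, with STAR listed in the processing notes, after collagenase digestion and isolation of glomeruli and capture of about 8000 cells per library. The files list 6794880 barcodes per library, and the libraries held 90812138 to 103319588 UMIs. Barcodes with at least 1000 UMIs and at most 10% mitochondrial UMIs were kept. The study's further filter (200 to 3000 genes, ribosomal genes at most 5%) would leave 811, 474 and 430 barcodes in the untreated, treated and control libraries and was not the main choice.

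A barcode entered a class when at least 3 of its markers were detected and their summed share was at least 2 times the highest share in empty droplets (1 to 100 UMIs) of the 3 libraries. The markers were listed first and this scoring rule was chosen after seeing the data. Barcodes passing unrelated gates were left out as mixed, and Scrublet scores (scanpy 1.11.5) were an alternative. Counts were summed per class and library, scaled to CPM, and compared as ratios with exact conditional binomial 95% intervals (scipy 1.17.1), which cover counting error alone. With 1 library per group no test was possible. A gene counted as 2-fold different needed at least 50 UMIs over both groups. Shares of barcodes were taken after thinning each barcode to 1000 UMIs, and their intervals do not cover the random draw of the thinning. Coordinates come from GENCODE M21 (GRCm38), in which 32158 of 32285 gene identifiers were found. Genes named beyond the 10 come from the lists, from the 5 most like *Trem2* across classes and from the 10 ranked first in *Gpnmb*-positive barcodes, and the examples within lists were picked for their role or size after their values were seen. The genes and lists were chosen with earlier results of these data known. The interval calculation was tested on simulated data. The simulated counts were independent draws, as the intervals assume. The check therefore covers the calculation alone and not the spread between barcodes or animals.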

Additional observations from a re-analysis of the deposited data

How the results depend on the processing

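Under all 14 alternatives 9 of the 10 genes stood higher in treated macrophage-like barcodes and *Apoe* lower. The log2 ratios ranged from 2.32 to 2.91 for *Trem2*, 4.75 to 6.46 for *Gpnmb*, 2.01 to 5.31 for *Spp1* and -0.63 to -0.16 for *Apoe*, and no value changed sign. The median log2 ratio of the 10, 2.11, was 1.72 with the C1q genes left out of the gate, 2.21 without Scrublet doublets, 2.24 with free RNA subtracted, 2.00 with the macrophage gate at the free level itself and 1.68 as the mean CPM of single barcodes. The treated share of barcodes with 5 or more of the genes, 41.7%, was 27.8% without C1q, 45.5% with 4 markers, 38.0% at the free level and 46.9% at 4 times it. The untreated share, 7.5%, was 5.67% without barcodes shared between libraries, which drew the thinning anew. That value lies below the interval given for 7.5%, which does not cover the random draw. The treated share with *Trem2*, 37.7%, was 27.4% without C1q, 44.9% with 4 markers or at 4 times the free level, 34.5% at the free level and 46.8% with the order-of-magnitude rule for cells. The treated macrophage-like share, 6.66%, was 8.59% without C1q, 4.96% with 4 markers, 8.48% at the free level, 4.23% at 4 times it, 7.07% with 200 to 3000 genes and 7.11% with the order-of-magnitude rule. The untreated macrophage-like share, 5.39%, was 4.46%, 4.78%, 5.85% and 4.41% in the first 4 of these settings, 4.96% at 500 UMIs, 5.83% with mixed barcodes kept and 6.21% with the order-of-magnitude rule. At 4 times the free level it was thus above the treated share. Treated *Trem2* in endothelial-like barcodes over empty droplets, 0.153, was 0.128 without Scrublet doublets, 0.231 as mean CPM and 0.109 with the order-of-magnitude rule. The gates at the free level and at 4 times it, and leaving out shared barcodes, were chosen after seeing the data. Thinned shares at 500 UMIs, and empty-droplet comparisons with free RNA subtracted, were not run. No paired analysis was possible because each condition is 1 library. With 1 library a group, no alternative measures the spread between animals, and the 6 control barcodes limit any level there.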

Other observations

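In *Trem2*-positive over *Trem2*-negative macrophage-like barcodes of the untreated library, 62 against 698 after thinning, *Fabp5* had a log2 ratio of 1.54 and *Apoe* of 0.80, and in the treated library, 417 against 688, they had 1.08 and 0.73. *Cd9* had -0.02 in the treated library. The 10 genes thus did not all vary together from barcode to barcode, and barcodes of 1 library are not replicates.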
